A study of Mus musculus with 9 samples.

Results

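The nuclear genes for mitochondrial ribosomal proteins were examined in mouse bone marrow-derived macrophages (BMDMs) cultured toward osteoclasts. Every gene whose symbol begins with Mrps or Mrpl followed by a number was taken, without the 5 entries marked as pseudogenes by a "-ps" suffix, which left 78 of the 28379 genes in the table. All 78 passed the filter on low counts, among 17002 genes tested. Poly(A) RNA was sequenced from BMDMs of 10-week-old C57BL/6J mice after 48 h, and every culture received M-CSF at 20 ng/ml. The 3 groups were PBS (M-CSF alone), RANKL (RANKL added at 100 ng/ml) and RANKL + Vit D + K (RANKL with calcitriol at 1000 nM and the vitamin K2 form MK4, 20 μM in the labels and a higher dose in the study's methods). Each group had 3 libraries. No group received the vitamins without RANKL, so the vitamins were compared only on top of RANKL.

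The mitochondrial ribosome, or mitoribosome, translates the few proteins that mitochondrial DNA still encodes, all of them parts of the respiratory chain and of ATP synthase. Its rRNAs come from mitochondrial DNA, whereas its proteins are encoded in the nucleus, made in the cytosol and imported, so that 2 genomes must supply 1 particle. Part of the proteins have counterparts in bacteria, and the rest were added during the evolution of mitochondria. RANKL drives macrophages to fuse into osteoclasts, which are known for abundant mitochondria, and calcitriol acts through the vitamin D receptor.

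The labels do not say that replicates came from separate cultures, and the methods mention pooled RNA without saying how it was pooled. The p-values therefore measure the spread between these libraries, which may be technical. Total counts were between 65915112 and 68229647 per library. All 8 macrophage markers checked were detected, and their summed level was 26400 to 30600 FPKM (fragments scaled to transcript length and library total) in PBS, 16700 to 24300 in RANKL and 4530 to 11600 in RANKL + Vit D + K. Lyz2 made up most of this sum, and without it the range was 2232 to 2410, 1670 to 2079 and 1343 to 1408 FPKM. In RANKL + Vit D + K against RANKL, 7 of the 8 markers were lower in every library and Cd68 was higher in every library, and in RANKL against PBS Itgam was higher in every library. The sum over 9 osteoclast markers was 22.9 to 30.4 FPKM in PBS, 487 to 1020 in RANKL and 58.2 to 93.1 in RANKL + Vit D + K, with 1 marker at 0 in all libraries of PBS and 1 in all of RANKL + Vit D + K. The sum over 9 neutrophil markers was 11.1 to 128 FPKM in PBS, 11.3 to 148 in RANKL and 0.551 to 1.72 in RANKL + Vit D + K, where 6 of the 9 were at 0. The part of these cell differences in the results on mitoribosomal genes was not tested. In bulk RNA, fewer cells of a type and less RNA per cell cannot be told apart.

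The 78 genes were spread over 17 chromosomes, with 11 of them on chromosome 11. The start of 37 of the 78 genes (47.4%) lay within 1000 bases of a gene start on the other strand, against 24.4% of the 12752 tested genes with a protein-coding transcript. RefSeq promoters (build GRCm38.p6, 250 bases before to 50 after a start) were matched for 69 of the 78 genes, giving 75 promoters. They were searched on both strands for the letters of factors known to act at genes for mitochondrial proteins. The NRF1 letters GCGCANGCG were found in 16 of the 75 member promoters (21.3%), in 12.7% of the promoters of tested protein-coding genes and in 6.25% of all 32851 promoters. The ETS letters CCGGAAGT, to which GABP binds, were found in 12 (16%), against 7.89% and 3.89%. The YY1 letters AANATGGCG were found in 11 (14.7%), against 4.82% and 2.38%. The E-box CACGTG was in 9.33% of member promoters and 9.7% of those of tested protein-coding genes, the CCAAT box in 40% and 37.8%, and the ATF4 letters TGATGCAA in none of the 75 and in 0.663%. These are matches of letters and not measured binding.

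In all, 6 stretches just upstream of annotated exons are shown as examples of how these letters sit in the promoters, with NRF1 or ETS letters in capitals (or their reverse complement) and each read 5′ to 3′ on the strand of its gene. The first is for a gene of the stalk, the next for genes of the exit region, and the last 3 for genes with ETS letters.
Mrpl12 (chr11:120484493-120484612, + strand): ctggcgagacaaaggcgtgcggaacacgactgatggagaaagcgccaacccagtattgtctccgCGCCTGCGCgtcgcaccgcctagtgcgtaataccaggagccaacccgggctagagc
Mrpl22 (chr11:58171541-58171660, + strand): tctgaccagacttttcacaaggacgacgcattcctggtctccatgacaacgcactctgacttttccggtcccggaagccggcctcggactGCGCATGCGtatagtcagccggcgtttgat
Mrpl45 (chr11:97315596-97315715, + strand): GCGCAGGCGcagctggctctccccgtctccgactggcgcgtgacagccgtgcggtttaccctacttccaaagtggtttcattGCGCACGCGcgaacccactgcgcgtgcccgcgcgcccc
Mrpl43 (chr19:45006443-45006557, - strand): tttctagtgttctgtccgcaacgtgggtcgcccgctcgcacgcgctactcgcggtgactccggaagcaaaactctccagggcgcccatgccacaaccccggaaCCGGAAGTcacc
Mrps22 (chr9:98601680-98601799, - strand): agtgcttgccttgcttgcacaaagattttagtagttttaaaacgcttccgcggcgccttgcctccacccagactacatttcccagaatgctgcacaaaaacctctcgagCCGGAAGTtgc
Mrps27 (chr13:99344706-99344785, + strand): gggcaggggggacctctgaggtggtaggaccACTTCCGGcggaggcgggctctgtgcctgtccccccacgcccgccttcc

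The mitoribosomal genes were expressed at moderate levels in every group, and no member was silent. The mean level of single genes ran from 1.43 to 36.9 FPKM in PBS, from 1.86 to 42.7 in RANKL and from 1.3 to 28.7 in RANKL + Vit D + K, and the median gene stood at 6.19, 8.03 and 7.44 FPKM. The sum over all 78 genes was 653.9 ± 33.6 FPKM in PBS, 831.8 ± 86.3 in RANKL and 677 ± 92.3 in RANKL + Vit D + K (SD, n = 3 libraries each). In single libraries the sum was 642, 692 and 628 FPKM in PBS, 798, 930 and 767 in RANKL, and 624, 784 and 624 in RANKL + Vit D + K. The RANKL libraries thus lay above all PBS libraries, and the second vitamin library lay among the RANKL libraries while the other two lay below every PBS library.

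Within one library the genes differed widely in level. The highest member exceeded the lowest by 16.65 to 45.95 times. Mrps21, Mrpl24 and Mrps23 had the highest mean FPKM over the 9 libraries, and Mrps10, Mrps22 and Mrps35 the lowest. FPKM divides a count by length, so this order is not one of counts. The length implied by count and FPKM was 826, 2518 and 1743 bases for the highest. For the lowest it was 9059, 4467 and 9663 bases. Mrps21 stood at 34.8, 43.2 and 32.7 FPKM in the 3 PBS libraries, whereas Mrps35 stood at 1.59, 1.48 and 1.21. The order of the genes by level was nearly the same in PBS and RANKL (Spearman's rho = 0.979 over 78 genes) and less so between PBS and RANKL + Vit D + K (0.889) and between RANKL and RANKL + Vit D + K (0.898). These coefficients are across genes of pooled group means and describe the order only. The median coefficient of variation of a member was 9.04% among PBS libraries, 13.8% among RANKL libraries and 16.6% among RANKL + Vit D + K libraries.

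**Figure D1:**
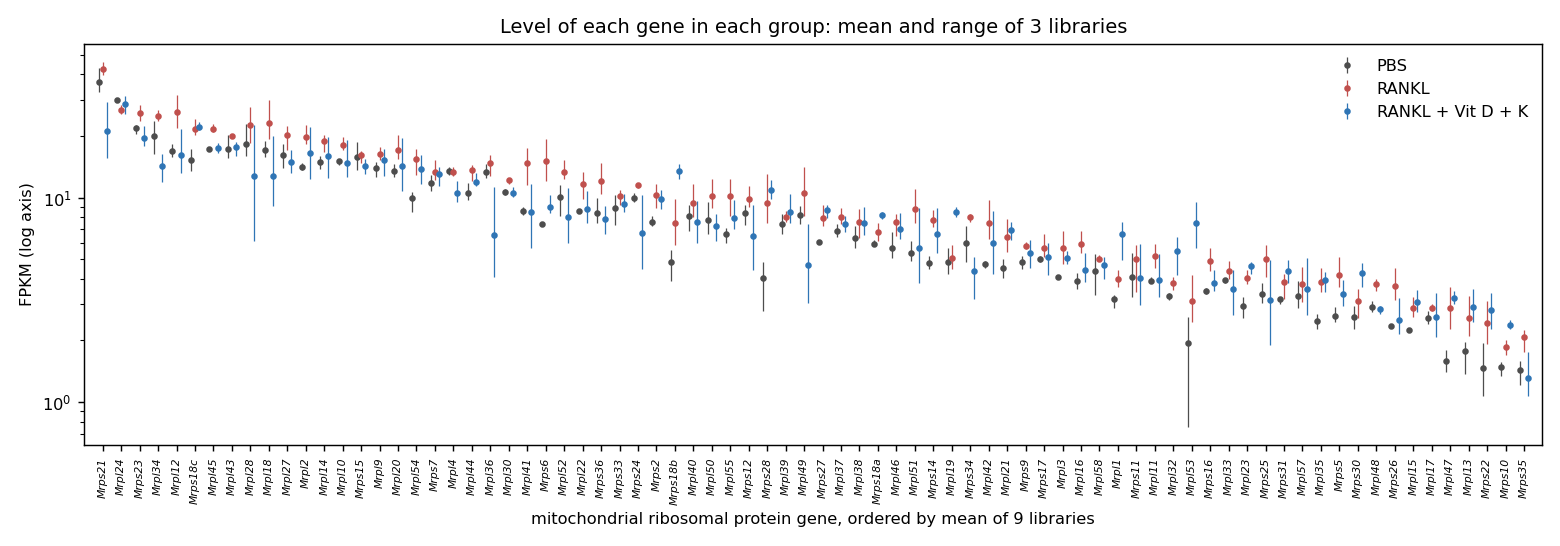
Mean FPKM (vertical log axis) of each of the 78 genes in PBS, RANKL and RANKL + Vit D + K, ordered by the mean of 9 libraries, with bars from the lowest to the highest of 3 libraries. Mrps21 leads and Mrps35 is last, and the vitamin group departs from the order of the other groups at single genes such as Mrps18b and Mrpl36.

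The first comparison was RANKL against PBS, the step by which macrophages start toward osteoclasts. Mitoribosomal genes stood slightly higher with RANKL almost throughout, but only 1 passed the test. Mrps6, a small-subunit protein with a bacterial counterpart, rose by 0.88 ± 0.19 on the log2 scale (SE, edgeR quasi-likelihood test, adjusted p = 0.039), and none fell. This is 1 of 78 (1.28%), against 3.61% of all genes tested (2.35% higher and 1.26% lower). The fitted change was above 0 for 73 of the 78 genes (93.6%), against 45.7% of all genes, and the median change was 0.22, against -0.04 over all genes. On counts scaled to TMM-adjusted library size (CPM), 36 members (46.2%) had every RANKL library above every PBS library, against 15.7% of all genes. In 2 members, Mrpl4 and Mrpl24, which are named for this after their values were seen, every RANKL library lay lower on this scale (2.56%, against 19.9% of all genes), and 40 members overlapped. An unadjusted p under 0.05 was reached by 21 members, and 18.6% of all genes reached it.

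Mrps6 stood at 7.46, 7.31 and 7.50 FPKM in PBS and at 13.8, 19.3 and 12.1 with RANKL. The RANKL libraries lay well above a tight PBS group, and the second was the highest. The call did not survive the fit with the replicate number as a block (log2 change 0.88, adjusted p = 0.053), and in that fit no member passed. It was also lost without any one PBS library or any one RANKL library, and without the third vitamin library, with adjusted p up to 0.128. Mrps6 (ENSMUSG00000039680) spans chr16:92058270-92112227, and Slc5a3, the gene of a sodium-dependent myo-inositol transporter, lies inside this span on the same strand. Slc5a3 stood at a mean of 3.97 FPKM in PBS, 8.77 in RANKL and 2.12 in RANKL + Vit D + K, with fitted log2 changes of 1.01 for RANKL against PBS (adjusted p = 0.049) and -1.88 for RANKL + Vit D + K against RANKL (adjusted p = 0.0011). How reads in the shared span were divided between both genes is not given in the sources used here, so the values of Mrps6 are uncertain.

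Next to Mrps6, 4 members had an adjusted p between 0.05 and 0.10 for RANKL against PBS. They were Mrps28, Mrpl47, Mrps5 and Mrps14, the last 2 named after their values were seen. Mrps28, a small-subunit protein, had the largest fitted change of all members, 1.09 ± 0.27 (adjusted p = 0.065). It stood at 4.85, 4.42 and 2.79 FPKM in PBS and at 7.50, 13.0 and 7.88 with RANKL, with no overlap between the groups. Mrpl47, a protein of the polypeptide exit region, stood at 1.40, 1.79 and 1.55 FPKM in PBS and at 2.74, 3.65 and 2.28 with RANKL (log2 change 0.74 ± 0.19, adjusted p = 0.074). Both groups of libraries were again apart, without a call.

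By structural class, 1 of 16, 0 of 10, 0 of 30 and 0 of 21 members were called, in the order below. Against PBS the median log2 change, which was -0.04 over all genes, was 0.18 for the 16 small-subunit proteins with bacterial counterparts, 0.36 for the 10 small-subunit proteins specific to mitochondria, 0.21 for the 30 large-subunit proteins with bacterial counterparts and 0.21 for the 21 large-subunit proteins specific to mitochondria. The last class holds Mrps18a and Mrps30, which sit in the large subunit in spite of their names. Mrps36, the remaining gene, is named as a ribosomal protein but its product belongs to the 2-oxoglutarate dehydrogenase complex. Mrps36 had a log2 change of 0.38 ± 0.17 (adjusted p = 0.28). The second RANKL library was the highest of the RANKL libraries for 49 of the 78 genes on the TMM-scaled CPM scale, and for all 9 osteoclast markers in FPKM. The same count over all genes was not made. The part of this library in the shift was not tested beyond leaving it out. Without it the median change was 0.19, and 68 of 78 genes were above 0.

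The second comparison, RANKL + Vit D + K against RANKL, asked what the vitamins changed in cells that all received RANKL. Of the 78 genes, 8 rose and 8 fell (10.3% each), and 62 did not pass the test. The balance depended on the settings, with 4 higher and 11 lower on total counts, 5 and 18 with limma on log2(FPKM + 1), 11 and 5 with a length trend removed, and 11 and 19 without the second vitamin library. The 16 called members make 20.5% of the 78, below the 33.7% of all genes that were called (16.4% higher and 17.2% lower). The median change was -0.08, against -0.04 over all genes, and 33 of 78 genes had a fitted change above 0. On the TMM-scaled CPM scale, 12 members had every vitamin library above every RANKL library (15.4%, against 21.5% of all genes), 19 had every one below (24.4%, against 25.4%) and 47 overlapped.

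The genes that rose were Mrpl53, Mrps18b, Mrpl19, Mrpl1, Mrpl32, Mrps30, Mrps10 and Mrps18a, with log2 changes from 0.44 to 1.40. Mrpl53, a protein of the stalk base of the large subunit, had the largest rise, 1.40 ± 0.45 (edgeR, adjusted p = 0.040). It stood at 2.47, 2.72 and 4.17 FPKM with RANKL and at 5.67, 7.26 and 9.53 with the vitamins, so the groups were apart, but it had the lowest counts of all members, down to 45 in the first PBS library. Mrpl53 (ENSMUSG00000030037) spans chr6:83109040-83109939 and overlaps genes on both strands. Mrps18b, a small-subunit protein specific to mitochondria, rose by 1.00 ± 0.22 (adjusted p = 0.0090). It stood at 6.89, 9.87 and 5.86 FPKM with RANKL and at 14.6, 12.3 and 13.5 with the vitamins. All vitamin libraries lay above the highest RANKL library.

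Mrpl19, a large-subunit protein with a bacterial counterpart, had the smallest adjusted p of the members in this comparison (log2 change 0.91 ± 0.15, adjusted p = 0.0027). It stood at 4.85, 5.88 and 4.45 FPKM with RANKL and at 8.57, 8.06 and 8.98 with the vitamins, which were closely grouped. Gcfc2, which overlaps it on the other strand, rose as well (1.03, adjusted p = 0.0041). Reads in the stretch that both genes share cannot be told apart without strand. Mrpl1, the protein of the mobile L1 stalk, rose by 0.89 ± 0.21 (adjusted p = 0.011). It stood at 3.66, 4.43 and 3.94 FPKM with RANKL and at 7.61, 4.96 and 7.27 with the vitamins, and the second vitamin library was close to the RANKL libraries.

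The other raised genes changed less. Mrpl32, a large-subunit protein, rose by 0.68 ± 0.20 (adjusted p = 0.030), although on the CPM scale its second vitamin library overlapped the RANKL libraries. Mrps30 rose by 0.62 ± 0.19 (adjusted p = 0.032) and Mrps18a by 0.44 ± 0.13 (adjusted p = 0.026), both large-subunit proteins specific to mitochondria. Mrps18a belongs to a family of 3 related genes whose products occupy different sites, and the third, Mrps18c, did not pass the test (0.19 ± 0.12, adjusted p = 0.28). Mrps10, a small-subunit gene of low FPKM, stood at 1.88, 2.01 and 1.69 FPKM with RANKL and at 2.28, 2.51 and 2.32 with the vitamins (0.50 ± 0.13, adjusted p = 0.018).

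The genes that fell were Mrpl36, Mrpl49, Mrps21, Mrps34, Mrpl34, Mrpl41, Mrps6 and Mrpl12, with log2 changes from -1.06 to -0.55. Mrpl36, a very small large-subunit protein, had a log2 change of -1.06 ± 0.31 (adjusted p = 0.027). It stood at 16.1, 15.5 and 12.7 FPKM with RANKL and at 4.08, 11.2 and 4.39 with the vitamins. The second vitamin library lay just under the RANKL libraries, and without it the change was -1.58 (adjusted p = 8.73e-05). The call held in 4 of the 9 analyses that left out a library and was lost without any one RANKL library and without the first or the third vitamin library (adjusted p up to 0.105). Mrpl49, a large-subunit protein specific to mitochondria, had a log2 change of -1.04 ± 0.29 (adjusted p = 0.023). It stood at 8.08, 14.1 and 9.30 FPKM with RANKL and at 3.03, 7.39 and 3.58 with the vitamins, again with the second vitamin library nearest to RANKL.

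Mrps21, a small-subunit protein with a bacterial counterpart and the highest member in PBS and in RANKL, had a log2 change of -0.89 ± 0.19 (adjusted p = 0.0077). It stood at 45.9, 42.5 and 39.7 FPKM with RANKL and at 15.5, 29.3 and 18.5 with the vitamins, below every RANKL and every PBS library. Mrps34, a small-subunit protein specific to mitochondria, stood at 7.60, 8.31 and 8.21 FPKM with RANKL and at 3.19, 5.10 and 4.90 with the vitamins (-0.73 ± 0.20, adjusted p = 0.022). Mrpl34 had a log2 change of -0.68 ± 0.17 (adjusted p = 0.017), Mrpl41 one of -0.67 ± 0.23 (adjusted p = 0.047) and Mrpl12, the stalk protein that recruits translation factors, one of -0.55 ± 0.17 (adjusted p = 0.034). Mrps6, uncertain because of Slc5a3, had one of -0.57 ± 0.19 (adjusted p = 0.042). Of the 9 analyses that left out a library, Mrpl41 was called in 1, Mrpl12, Mrps6 and Mrpl53 in 2, Mrpl36, Mrpl32, Mrps30 and Mrps18a in 4, Mrpl49 and Mrps10 in 5, Mrps34 and Mrpl34 in 6, and Mrpl19, Mrpl1, Mrps18b and Mrps21 in all 9. Mrpl41 and Mrpl12 were called in 7 and 9 of all 20 alternatives, with adjusted p up to 0.145 and 0.14.

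**Figure D2:**
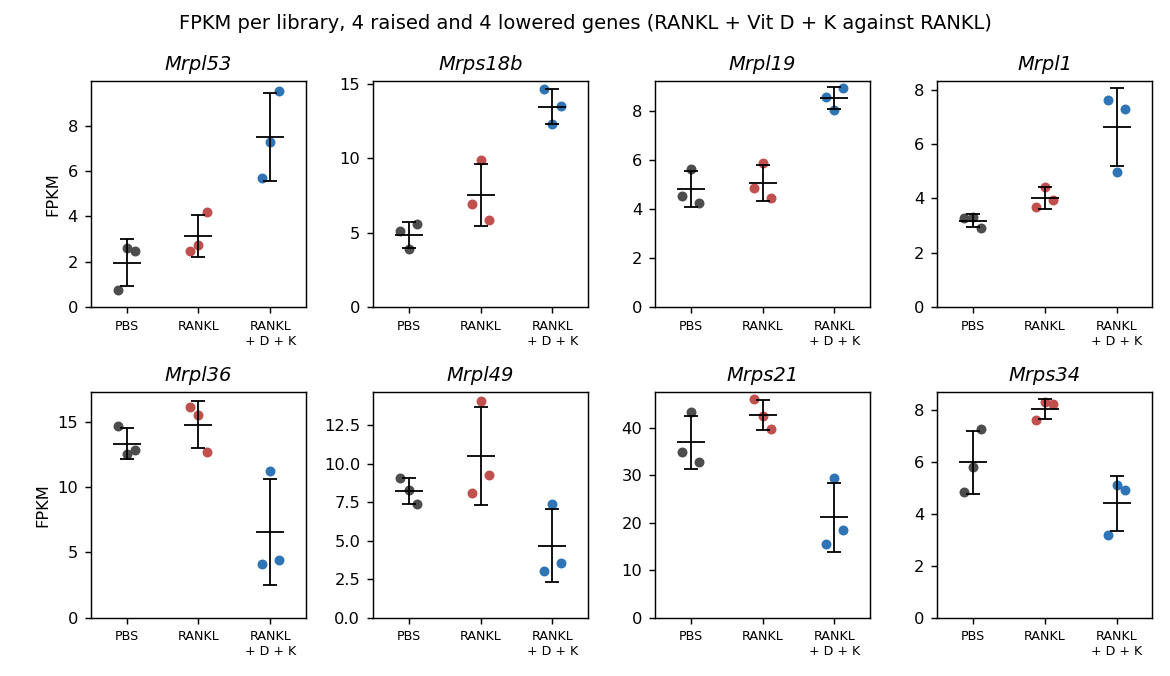
FPKM in each library (points, replicates 1 to 3 from left to right in each group) with the mean and SD (bars, n = 3) for the 4 genes with the largest rise and the 4 with the largest fall among those called in RANKL + Vit D + K against RANKL. Mrpl53, Mrps18b, Mrpl19 and Mrpl1 were highest with the vitamins, and in Mrpl36, Mrpl49 and Mrps21 the second vitamin library lay between the RANKL libraries and the other vitamin libraries.

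The second vitamin library stood apart at many of these genes. On the TMM-scaled CPM scale it was the lowest of the 3 vitamin libraries for 7 of the 8 raised genes. It was the highest for 5 of the 8 lowered genes, and the same counts over all genes were not made. It was also the highest vitamin library for 7 of the 9 osteoclast markers, such as the protease Ctsk (57.4 FPKM, against 32.6 and 26.0), while Calcr was at 0 in all and Atp6v0d2 was lowest there (12.4 FPKM). Of the 8 macrophage markers it was the highest for 4, such as the lysozyme Lyz2 (10168 FPKM, against 3189 and 4852), and not for Cd68, Adgre1, Itgam and Fcgr1. The part of this difference in the calls was not tested beyond leaving the library out. Without it 11 members were called higher and 19 lower. Without any other single library of the RANKL or vitamin groups the counts were 3 to 6 higher and 2 or 3 lower, and without any one PBS library 6 to 8 higher and 5 lower. Mrpl19, Mrpl1, Mrps18b and Mrps21 were called in each of the 20 alternative analyses. Scaling by total counts instead of TMM gave 4 higher and 11 lower, and moved the median of all genes from -0.04 to -0.18 and that of the members from -0.08 to -0.21.

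The levels and lengths of raised and lowered genes are given here without a test of their difference. The 8 lowered genes had a median of 11.0 FPKM in PBS (5.97 to 36.9), the 8 raised genes 3.22 (1.48 to 5.93) and the 62 others 6.48. The transcript length implied by count and FPKM was 1504 bases at the median for the lowered genes (678 to 2311), 5182 for the raised genes (894 to 9059) and 2876 for the others (876 to 9663). In length the raised and lowered genes overlapped only through Mrpl53 (894 bases). The next raised gene in length, Mrps18b, stood at 2339 bases. Over the 78 genes the log2 change with the vitamins had a Spearman's rho of -0.437 with the FPKM in PBS and of 0.385 with this length. Over all 17002 genes tested, both coefficients were 0.113. For RANKL against PBS, rho with length was -0.08 over the 78 genes. These are descriptions across genes of the same 9 libraries, and level and length enter each other, since FPKM is a count divided by length. With a trend on length removed from each library, 11 members were higher and 5 lower, and the members' median turned from -0.08 to 0.07 (from -0.04 to 0.03 over all genes).

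**Figure D3:**
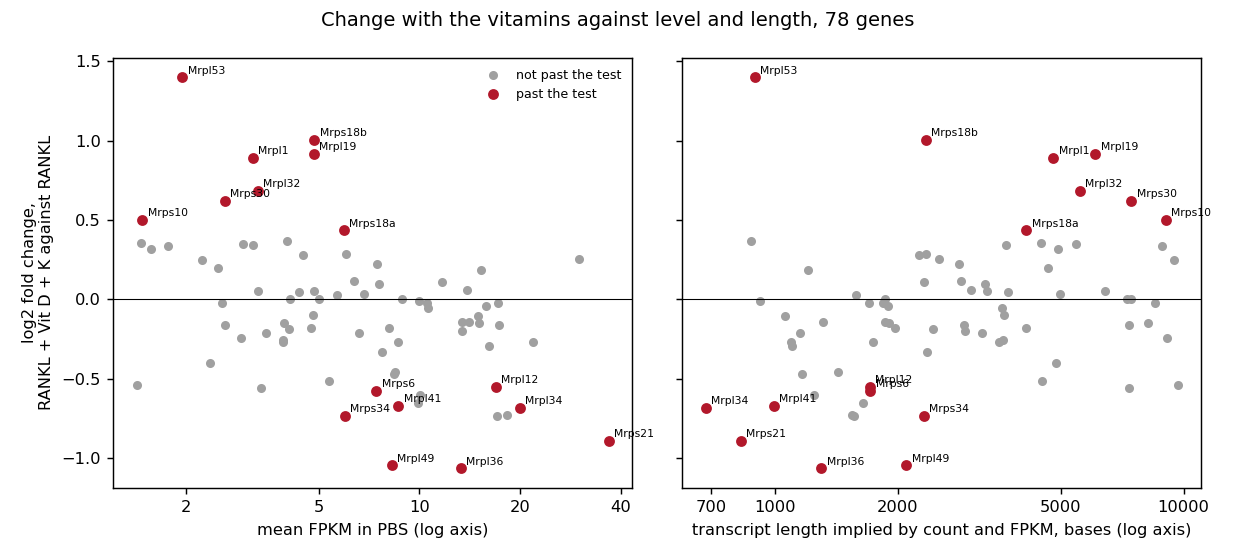
Fitted log2 change in RANKL + Vit D + K against RANKL (vertical) for the 78 genes against the mean FPKM in PBS (left, log axis) and against the transcript length implied by count and FPKM in bases (right, log axis), with called genes in red. Raised genes lie at low level and, except Mrpl53 and Mrps18b, at greater length, and lowered genes at higher level and at 678 to 2311 bases.

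Both subunits and all 4 structural classes held raised and lowered genes, and the counts below are to be read against the 16.4% of all genes that were higher and the 17.2% that were lower. Among small-subunit proteins 1 of 16 with bacterial counterparts rose (6.25%) and 2 fell (12.5%), and 1 of 10 specific to mitochondria rose and 1 fell (10% each). Among large-subunit proteins 3 of 30 with bacterial counterparts rose and 3 fell (10% each), and 3 of 21 specific to mitochondria rose (14.3%) and 2 fell (9.52%). The stalk region held 1 raised gene, Mrpl53, and 1 lowered gene, Mrpl12, of 5 (log2 changes from -0.55 to 1.40). None of the 6 genes of the exit region (-0.27 to 0.35) and none of the 7 of the central protuberance (-0.74 to 0.12) passed. Mrps36, whose product is not ribosomal, had a log2 change of -0.46 ± 0.17 (adjusted p = 0.068), with all vitamin libraries below all RANKL libraries.

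Some called members start beside or overlap another gene, whose own values are given here. Ndufs6, a complex I subunit gene whose start is 51 bases from that of Mrpl36, had a log2 change of -0.48 (adjusted p = 0.048). Fau, at 59 bases from Mrpl49, had one of -0.23 (adjusted p = 0.17), Psma2, at 75 bases from Mrpl32, one of 0.10 (adjusted p = 0.54), and Ppp1r10, at 45 bases from Mrps18b, one of -0.57 (adjusted p = 0.12) where Mrps18b rose. Eme2, at 29 bases from Mrps34, had one of -0.76 (adjusted p = 0.056), and Nme3, which overlaps Mrps34 on the same strand, one of -0.92 (adjusted p = 0.069). Other overlapping genes were called against the direction of their member, namely Mapk8ip3, on the other strand of Mrps34 (0.74, adjusted p = 0.0060), Syvn1, on the other strand of Mrpl49 (0.50, adjusted p = 0.011), and Gm42688, on the strand of Mrpl53 (-0.50, adjusted p = 0.025). C920021L13Rik, at 3 bases from Mrps21, had one of -0.80 (adjusted p = 0.26), Pnpla7, at 935 bases from Mrpl41, one of 0.33 (adjusted p = 0.43), and Ccdc142os, at 14 bases from Mrpl53, one of -2.12 (adjusted p = 0.25). Rsph9, Gm16279 and Gm16310, which overlap Mrps18a, Mrps18b and Mrps6, did not pass (-0.38, 0.27 and 2.30). B430218F22Rik, at 622 bases from Mrps30, was not among the genes tested. The differences within these pairs were not tested. Of the 16 called members, 8 (50%) overlap another gene of the table, against 47.7% of tested genes with a protein-coding transcript.

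The third comparison, RANKL + Vit D + K against PBS, shares its libraries with the first and second and is given beside them. More members stood above the level of untreated macrophages than below it. Of the 78 genes 20 were higher (25.6%, against 19.8% of all genes) and 4 lower (5.13%, against 21%), and 54 did not pass. In all, 30.8% of members were called, against 40.8% of all genes. The median change was 0.13, against -0.04 over all genes. On the TMM-scaled CPM scale 28 members had all vitamin libraries above all PBS libraries (35.9%, against 24.1% of all genes), and 5 had them below (6.41%, against 29%). Scaling by total counts gave 18 higher and 1 lower.

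The largest increases over PBS were those of Mrpl53, Mrps18b, Mrps28, Mrpl1, Mrpl47, Mrps22, Mrpl19 and Mrpl32, with log2 changes from 0.78 to 1.95. Mrps18b had the smallest adjusted p (1.5 ± 0.22, adjusted p = 0.0012). It stood at 5.08, 3.89 and 5.56 FPKM in PBS, below its vitamin levels given above. On the TMM-scaled CPM scale its PBS and RANKL libraries overlapped, and it did not pass for RANKL against PBS (0.50 ± 0.22, adjusted p = 0.26). Mrps28 reached 12.1, 10.6 and 9.85 FPKM with the vitamins (1.46 ± 0.28, adjusted p = 0.0035), in the range of its RANKL libraries. Mrpl47 reached 3.48, 3.00 and 3.14 FPKM (1.06 ± 0.19, adjusted p = 0.0031). Both had stood apart from PBS already with RANKL, and neither passed the test between RANKL + Vit D + K and RANKL (0.37 ± 0.27 and 0.32 ± 0.19). Mrps22, a small-subunit gene of low FPKM, stood at 1.38, 1.95 and 1.07 FPKM in PBS, 2.28, 3.11 and 1.92 with RANKL, and 2.74, 3.42 and 2.28 with the vitamins (0.96 ± 0.25 against PBS, adjusted p = 0.014).

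All 8 genes that rose against RANKL were also higher than PBS. For this count and the next, the share over all genes was not counted. Both comparisons use the same vitamin libraries, and a gene's change against PBS is the sum of its changes in the other comparisons. For RANKL against PBS, that change was above 0 in 73 of 78 members. Of the 8 that fell against RANKL, 3 were also lower than PBS, namely Mrpl36 (-1.04 ± 0.31, adjusted p = 0.024), Mrpl49 (-0.83 ± 0.29, adjusted p = 0.044) and Mrps21 (-0.80 ± 0.19, adjusted p = 0.0092). The fourth gene below PBS was Mrpl4, a protein whose tail lines the exit tunnel (-0.33 ± 0.10, adjusted p = 0.024). It stood at 12.8, 14.0 and 13.5 FPKM in PBS, 13.3, 14.1 and 12.7 with RANKL, and 9.49, 12.05 and 10.2 with the vitamins. The count of 4 lower genes was 10 without the second vitamin library, 1 without the first, 0 without the third, 1 without the first or the third PBS library and 0 without the second. The other 5 of the 8 lowered genes, Mrpl34, Mrps34, Mrpl12, Mrpl41 and Mrps6, did not pass against PBS, with log2 changes of -0.47, -0.43, -0.06, -0.03 and 0.31. Mrpl34 was nearest to a call (adjusted p = 0.057), with all vitamin libraries below all PBS libraries on the TMM-scaled CPM scale but not in FPKM. Mrpl12 stood at 18.3, 15.8 and 16.8 FPKM in PBS, 24.7, 31.8 and 21.9 with RANKL, and 13.2, 21.6 and 13.8 with the vitamins.

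**Figure D4:**
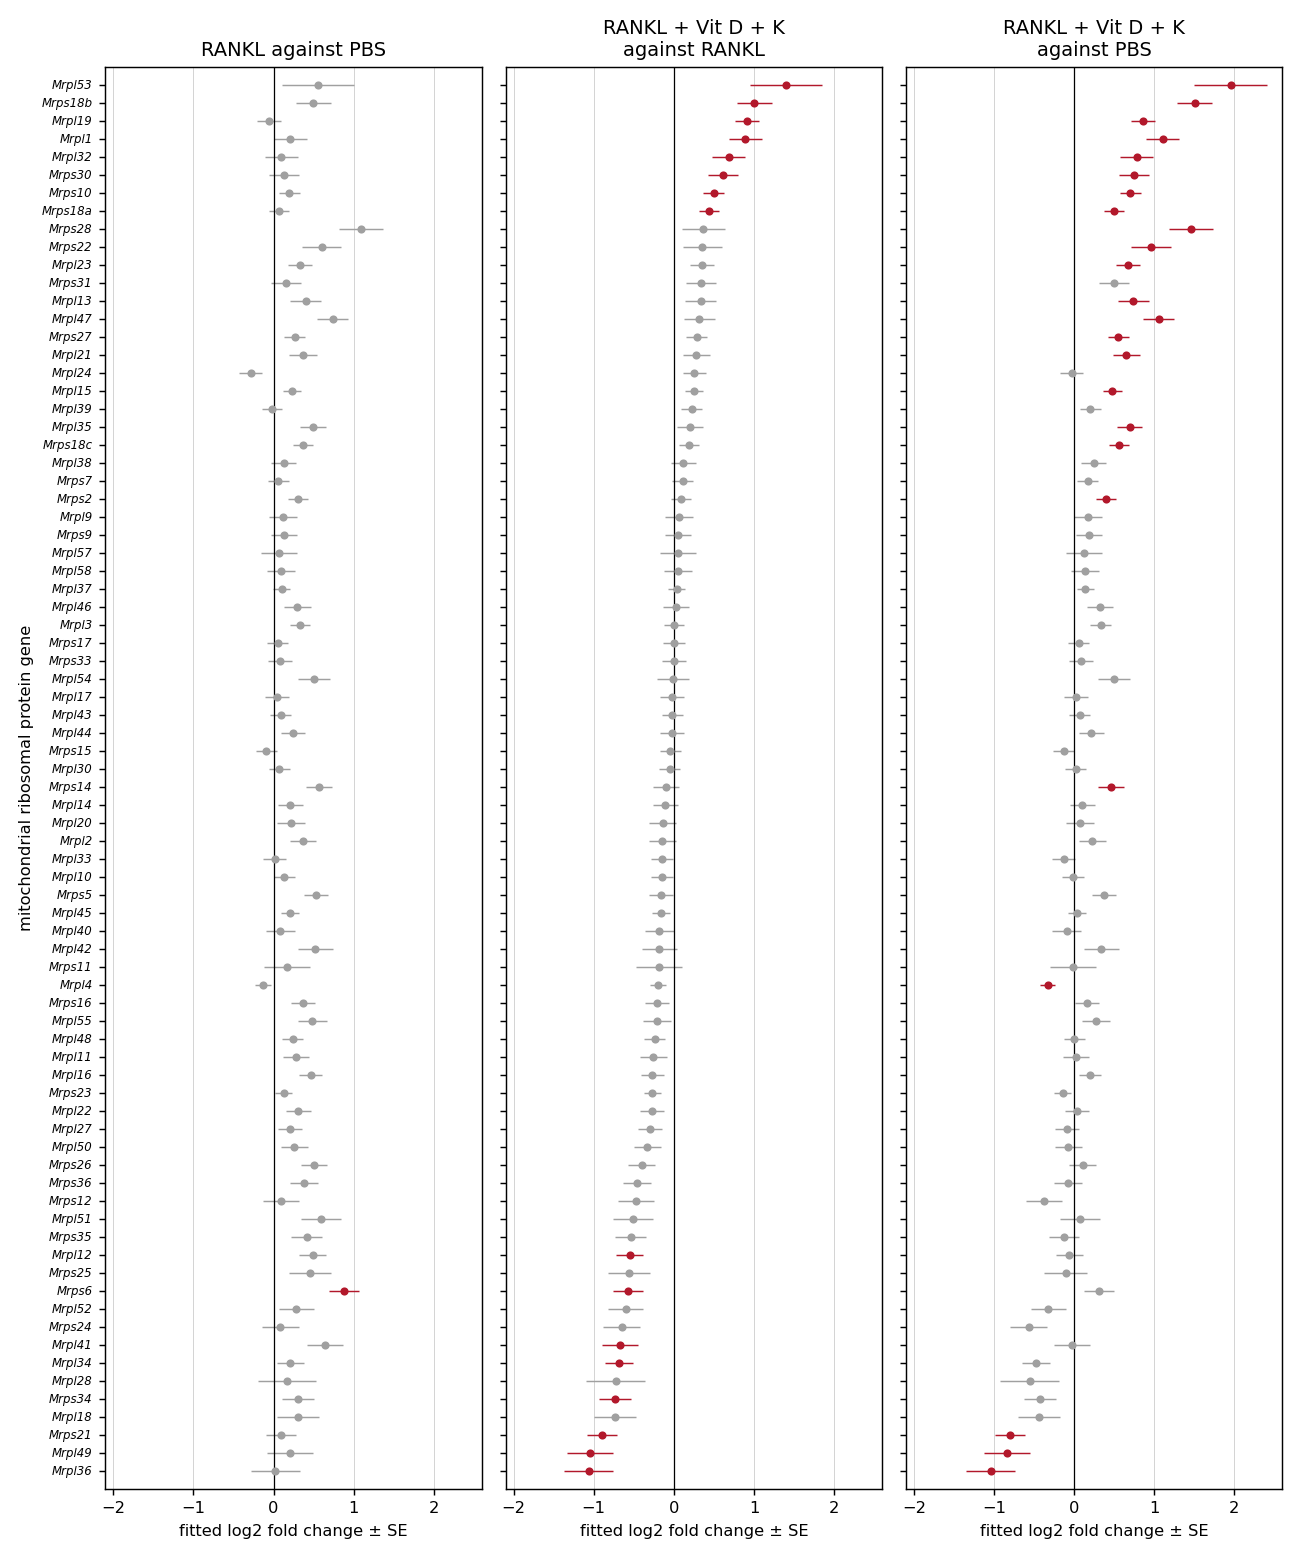
Fitted log2 fold change with SE (horizontal) of each of the 78 genes in the 3 comparisons, ordered by the change in RANKL + Vit D + K against RANKL, with genes past the test in red. With RANKL alone 73 of 78 points lie right of 0 and Mrps6 is called, and with the vitamins against RANKL 8 raised and 8 lowered genes are called.

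Other genes of the mitochondrial translation system were read from lists chosen by role. Of the 5 mitoribosomal proteins with other symbols (Dap3, Chchd1, Aurkaip1, Ptcd3 and Gadd45gip1), none passed for RANKL against PBS or for RANKL + Vit D + K against RANKL, with log2 changes from 0.07 to 0.38 and from -0.08 to 0.32. In RANKL + Vit D + K against PBS, Chchd1 (0.53, adjusted p = 0.022) and Ptcd3 (0.48, adjusted p = 0.025) were higher, 2 of 5 (40%, against 19.8% of all genes). Neither was called without the first or without the third PBS library or with total counts. Against RANKL their changes were 0.32 (adjusted p = 0.13) and 0.10 (adjusted p = 0.63). Among 29 genes of mitoribosome assembly and rRNA modification, 7 rose (24.1%, against 16.4% of all genes) and 3 fell (10.3%, against 17.2%) with the vitamins against RANKL, led by Gtpbp6, a GTPase gene (1.08, adjusted p = 0.030), and Ybey, an endoribonuclease gene (-0.89, adjusted p = 0.032). Of 20 translation factors and related genes, 3 rose and 3 fell (15% each, against 16.4% and 17.2% of all genes), led by Mrrf, the ribosome recycling factor (0.87, adjusted p = 0.015), and Gatc, a subunit of the amidotransferase that makes Gln-tRNA (-0.81, adjusted p = 0.0061). Of 17 mitochondrial aminoacyl-tRNA synthetases, 3 rose (17.6%) and 1 fell (5.88%), with Nars2 at 0.75 (adjusted p = 0.020) and Hars2 at -0.57 (adjusted p = 0.015). Of 6 genes of mitochondrial transcription, 1 fell (16.7%), the elongation factor Tefm (-0.69, adjusted p = 0.039). When a library was left out, the counts in these 4 lists were 3 to 7, 0 to 3, 0 to 5 and 0 higher and 2 to 6, 1 to 3, 0 to 3 and 0 to 3 lower, with no synthetase gene and no transcription gene called without the first or the third library of either the vitamin or the RANKL group. For RANKL against PBS, 1 of the 72 genes of these 4 lists passed (1.39%, against 3.61% of all genes), the elongation factor Gfm1, named after its value was seen (0.67, adjusted p = 0.049).

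The RNAs that the mitoribosome translates were read in the same libraries. Of the 13 protein-coding genes of mitochondrial DNA, counted as genes and not as separate transcripts, none passed for RANKL against PBS. The median log2 change was 0.32, and 12 of the 13 (92.3%, against 15.7% of all genes) had every RANKL library above every PBS library on the TMM-scaled CPM scale. With the vitamins against RANKL 8 fell (61.5%, against 17.2% of all genes) and none rose, with a median of -0.37. The largest fall was that of mt-Nd3, a complex I subunit (-1.08, adjusted p = 0.029), which stood at 363, 419 and 288 FPKM with RANKL and at 98.3, 270 and 101 with the vitamins. The second vitamin library was the highest vitamin library for 11 of the 13, a count not made over all genes, and lay nearest to RANKL in mt-Nd3. Without it 10 fell and 2 rose. Without any other single library 0 to 4 fell, with 0 without the third vitamin library and 1 without the first, and with the length trend removed 1 fell and 2 rose. The median stayed between -0.53 and -0.24 in the 20 alternatives. Against PBS 1 of the 13 was higher (7.69%, against 19.8% of all genes) and none lower (against 21%). Of the mitochondrial rRNAs, mt-Rnr2 fell with the vitamins against RANKL (-0.56, adjusted p = 0.024), and mt-Rnr1 did not pass (-0.24). Poly(A) selection catches rRNA only in part, so their levels depend on that step. Whether these lists differed from the 78 genes was not tested.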

How the data were processed

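The authors deposited 1 table of whole-number read counts per gene, not normalized, and of FPKM, which the authors scaled to transcript length and library total. The submitters' processing notes name cutadapt 1.9, HISAT2 2.0.4, StringTie 1.3.4d and edgeR, and the human build hg38, although the table holds mouse genes, whose coordinates equal those of GENCODE M21 on GRCm38 for 69 of the 78 members. Strandedness and counting are not given in the sources used here.

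Counts were tested in R 4.3.3 with edgeR 4.0.16 (filterByExpr, TMM, 1 quasi-likelihood model of all 9 libraries, Benjamini-Hochberg adjustment over 17002 genes, threshold 0.05). The SE is the log2 change divided by the square root of F. CPM was log2-transformed with a prior count of 2. The code was tested on simulated data. Deviations of same-numbered libraries from their group means correlated at 0.122, 0.219 and 0.155 between PBS and RANKL. Between either group and RANKL + Vit D + K they correlated at -0.022 to 0.107. The main fit took no pairs in any comparison. The numbers were taken as pairs only in the alternative with the replicate block, which covered every comparison. Alternatives used DESeq2 1.42.0, limma 3.58.1 on FPKM (log2 of FPKM plus 1 or 0.1, with a mean of at least 1 in some group or no filter), limma-voom, other scalings and filters, 2 groups only, the replicate block, a length trend and leaving out each library. An exact permutation test of 3 libraries against 3 cannot go below p = 0.1.

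Named members were up to 8 called per direction and comparison, the 3 highest and 3 lowest in level, and Mrps18a, Mrps18b, Mrps18c, Mrps30 and Mrps36; in each pathway list, the called gene with the largest change in each direction was named. Members and lists were chosen with earlier results of these data known. No per-sample column was left unmapped, and the authors' own comparisons were not used.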

Additional observations from a re-analysis of the deposited data

How the results depend on the processing

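For RANKL against PBS, where the count was 1 higher, it was 9 with DESeq2, 13 with limma-voom and quality weights, 9 with only the 2 groups, 3 with total counts, 4, 3 and 2 with limma on FPKM (log2 of FPKM plus 1, plus 0.1, and plus 1 without a filter), and 0 with the replicate block or the length trend removed. Leaving out a library gave 0 to 8, with 8 without the second vitamin library and 0 without any PBS library, any RANKL library or the third vitamin library. The members' median of 0.22 became 0.35 with total counts and 0.32, 0.34 and 0.32 with limma on FPKM, and 0.19 to 0.31 when a library was left out. With the replicate block, 8 members were higher and 13 lower for RANKL + Vit D + K against RANKL, 15 of the 16 calls were shared, and against PBS all 24 calls were shared.

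For RANKL + Vit D + K against RANKL, the 8 higher genes were 17 with limma-voom, 5, 5 and 3 with limma on FPKM in the same order, 4 with total counts, 4 without a filter and 5 with only the 2 groups, and 3 to 11 when a library was left out. The 8 lower genes were 14 with DESeq2, 28 with limma-voom, 18 with limma on FPKM plus 1 or 0.1, 5 without a filter, 3 with only the 2 groups and 5 with the length trend removed, and 2 to 19 when a library was left out. Their median of -0.08 became -0.21, -0.23 and -0.21 with limma on FPKM, -0.21 with total counts and 0.068 with the length trend removed, and -0.16 to -0.02 when a library was left out. Against PBS the 20 higher genes stayed within 15 to 28. The 4 lower genes were 2 with limma on unfiltered FPKM, 11 with limma-voom, 1 with total counts, 1 without a filter, 2 with only the 2 groups and 2 with the length trend removed, and 0 to 10 when a library was left out. That median of 0.13 became 0.32 with the length trend removed, and 0.11 to 0.23 when a library was left out. The causes of these moves were not tested. No named gene changed sign where it was called: of the values of named genes under the alternatives, 1301 kept their side of the threshold, 143 lost the call and 56 gained it.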

Other observations

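The 5 mitoribosomal entries with a "-ps" suffix, left out above, had counts of 0 to 119 per library, whereas the lowest mean count of a member, that of Mrpl53, was 250.4 and the median over members was 1437. The highest count of a member was 5301, for Mrpl24. How reads that fit both a gene and its pseudogene were counted is not given in the sources used here, so Mrps36, Mrpl23, Mrpl27 and Mrpl48, which have such entries, are uncertain to that extent.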
